A study of Xenopus laevis with 54 samples.

Results

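The 6 messages ptma.L, ptmap12.S, hdgf.L, marcksl1.S, mtss1.1.L and hmgb2.L of the Xenopus laevis embryo were taken out of 50489 genes in the deposited table. They were chosen by measured values, namely their presence at 5 hours post fertilization (hpf) and a value among newly made RNA that, set against the remaining RNA, was far higher at 9 hpf than at 5 hpf. Wild-type embryos had been injected at the 1-cell stage with 5-ethynyl uridine (EU), which cells build into the RNA they make from then on. The dose was 10 nl of 50 mM EU, or 0.5 mM final, and the labels give 22 °C for embryos and eggs. Blastulae were collected at 5, 6, 7, 8 and 9 hpf. EU-labelled RNA was captured on streptavidin beads, the RNA left behind was kept as flowthrough, and ribosomal RNA was depleted from all libraries. The libraries were bead RNA with 4 libraries at each time, flowthrough RNA with 4 at each time, total RNA of injected embryos (4 libraries at 5 hpf, 2 at every time after it), and total RNA of unfertilized wild-type eggs, for which the labels list no EU, with 2 libraries. Experiment 1 used 2 clutches for total, bead and flowthrough RNA at every time. Experiment 2 used 2 other clutches for bead and flowthrough RNA at every time and for total RNA at 5 hpf, and 2 clutches of eggs. Each library is therefore of whole embryos or eggs of 1 clutch, the later total RNA is of experiment 1 alone, and eggs are of experiment 2 alone.

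The early frog embryo starts with messages laid down in the egg and makes little RNA of its own until the midblastula transition, when its genome becomes active. A message can therefore be present from the mother and also be copied again from the embryo's genes, and the total RNA pool holds both kinds. Xenopus laevis carries an L and an S subgenome from an ancient hybridization, so each of the 6 genes has an other copy, a homeolog, on the other subgenome. Of the 6 genes, ptma encodes prothymosin alpha, a small very acidic nuclear protein that binds linker histones, and ptmap12 is, by its symbol, a relative of ptma that the RefSeq annotation lists as protein coding. Hmgb2 encodes a high mobility group box protein that bends DNA, and hdgf encodes hepatoma-derived growth factor, a chromatin-binding protein with a PWWP domain. Marcksl1 encodes a membrane-linked, actin-binding substrate of protein kinase C, and mtss1.1 encodes a protein of the MTSS1 type, which carries an I-BAR domain that binds membrane and actin.

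Values are the authors' normalized whole numbers, which are relative within a library and not counts per embryo, and no read depth can be recovered from them. In whole embryos, fewer cells with a message and less of it per cell cannot be told apart. Bead libraries of experiment 2 had 12814 to 18990 genes above 0 and those of experiment 1 had 23212 to 28348. Flowthrough libraries had 21965 to 25064 such genes, embryo total RNA had 23053 to 28666, eggs had 23890 to 25678, and no library was identical to another. Summed over all genes, bead values of experiment 2 were 8175480 and 8766814 at 5 hpf and 11545777 and 15200969 at 9 hpf. In experiment 1 they were 7422802 and 7441157 at 5 hpf and 8806052 and 8590580 at 9 hpf. Flowthrough sums were 7455643 to 8090104. The folds and ratios within a clutch below were not corrected for these sums. The labelled stages were checked with marker lists. The summed value of 17 egg and oocyte markers was 23258 to 23735 in total RNA at 9 hpf and 33379 to 34562 in eggs, and that of 29 zygotic blastula markers was 26235 to 29239 in total RNA at 9 hpf and 20 to 31 in eggs, where 22 of the 29 were at 0. The summed value of 17 follicle and blood markers, which would mark other cells of the ovary, was 83 to 200 in total RNA at 9 hpf and 6 to 46 in eggs, with 15 of the 17 at 0 in eggs.

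The label "abundant maternal" held for 5 of the 6 messages. In eggs, hmgb2.L had 12793 and 13708, marcksl1.S had 3183 and 3671, mtss1.1.L had 1966 and 1282, hdgf.L had 1271 and 1286, and ptma.L had 809 and 669. Ptmap12.S had only 66 and 291 in the 2 egg libraries. By mean total RNA at 5 hpf, hmgb2.L stood 14th, marcksl1.S 169th, mtss1.1.L 813th, hdgf.L 883rd and ptma.L 2599th of 29775 genes above 0. Ptmap12.S stood 7209th, at the 75.8th percentile, and in eggs at the 63.8th percentile. These values are not divided by transcript length, so the order is one of normalized values and not of molecules.

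The bead values that chose the 6 messages are given as a description, without a test. Ptmap12.S had the largest bead change of the 6. It had 3966, 3132, 17681 and 16991 on beads at 9 hpf, against 153, 134, 383 and 578 at 5 hpf, which is 23.4-fold to 46.2-fold within a clutch. All 4 clutches were far higher at 9 hpf, without overlap. Bead values chose the messages, so such separation is in part built in. The share of all genes without overlap on beads was not counted, here or for the messages below. Ptma.L had 5027, 5307, 26938 and 46504 on beads at 9 hpf, against 584, 809, 2188 and 4098 at 5 hpf. That is 6.56-fold to 12.3-fold within a clutch, and the clutches of experiment 2 were the higher ones at both times. Hdgf.L had 8974, 9527, 26209 and 28691 on beads at 9 hpf, against 1360, 1769, 2576 and 4673 at 5 hpf, or 5.39-fold to 10.2-fold within a clutch. Its groups did not overlap.

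The other 3 messages changed less on beads. Marcksl1.S had 13317, 10437, 11181 and 12794 at 9 hpf, against 3706, 3523, 2245 and 2835 at 5 hpf. It was the one message of the 6 whose clutches of experiment 2 did not lie above those of experiment 1, and its fold within a clutch was 2.96 to 4.98. Mtss1.1.L had 4138, 4738, 29968 and 30100 on beads at 9 hpf, against 1146, 1198, 7335 and 10038 at 5 hpf. Its fold within a clutch was 3.00 to 4.09, but the 2 clutches of experiment 2 were already higher at 5 hpf than those of experiment 1 at 9 hpf, so the times overlap unless the experiments are kept apart. Hmgb2.L had 21771, 21095, 41570 and 58065 on beads at 9 hpf, against 5821, 7283, 11662 and 15013 at 5 hpf. Its groups did not overlap and its fold within a clutch was 2.90 to 3.87.

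**Figure D1:**
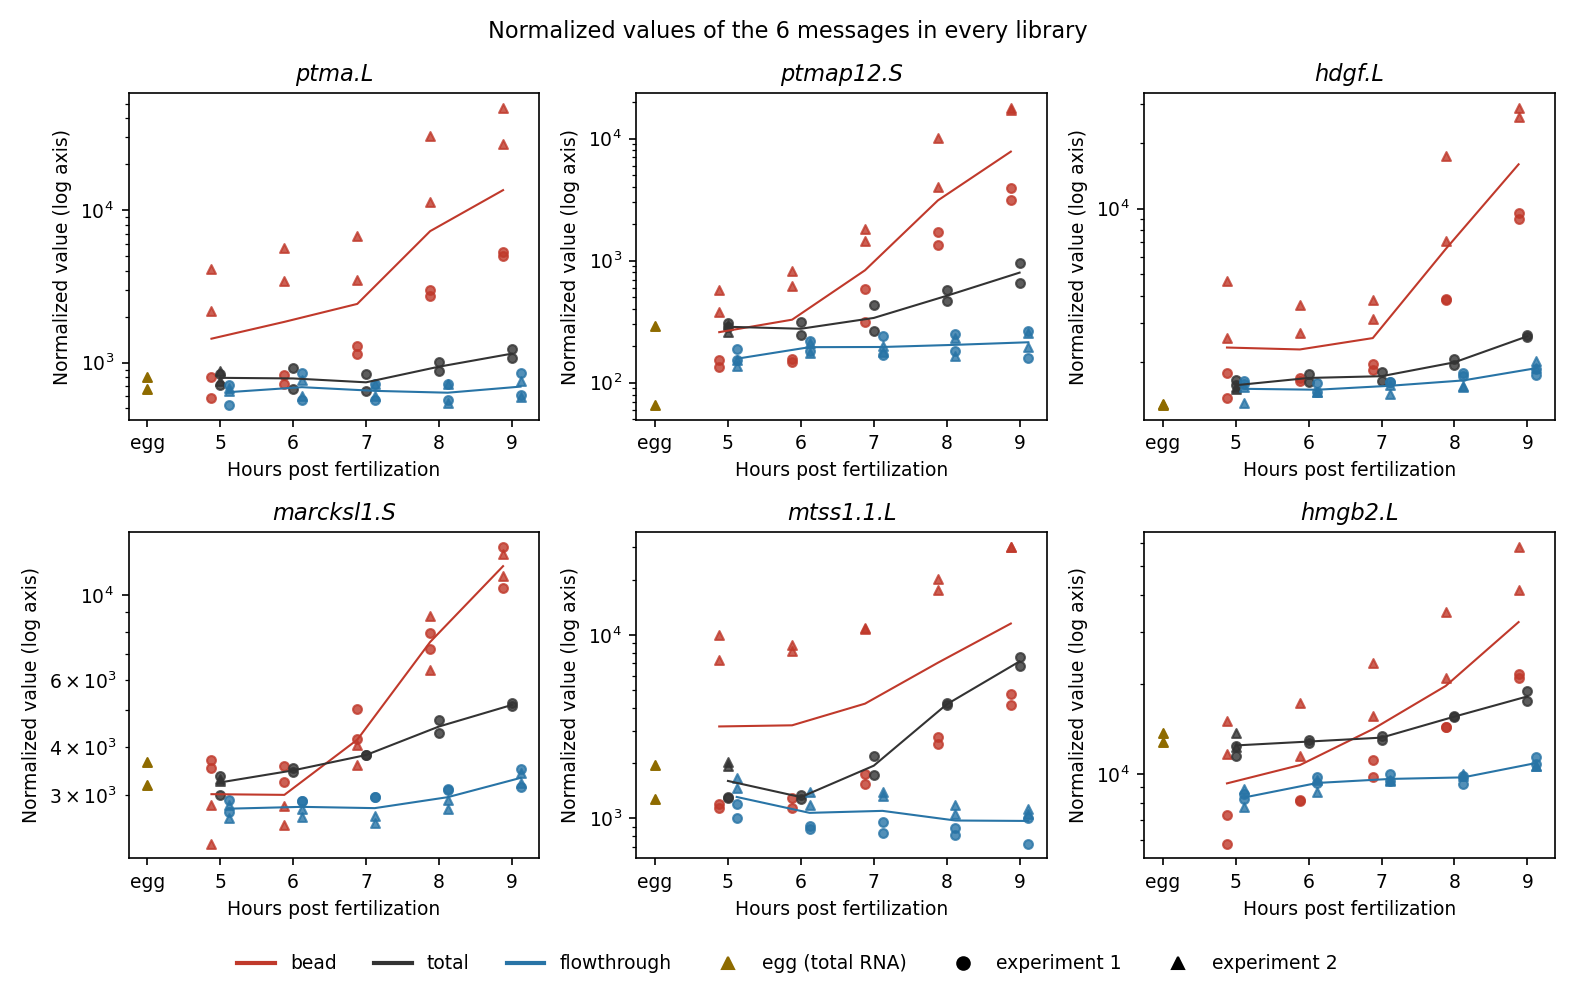
Normalized value (log axis) of each of the 6 messages in every library, by hours post fertilization, with eggs at the left. Points are libraries, circles experiment 1 and triangles experiment 2, and lines join the geometric means of bead, total and flowthrough RNA. The bead points climb from 7 hpf on, and those of experiment 2 lie above those of experiment 1 for all but marcksl1.S.

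The hour at which bead RNA passed 2-fold over the same clutch at 5 hpf also differed among the messages. At 6 hpf 0 of 4 clutches had passed it for any of the 6. At 7 hpf ptmap12.S had passed it in all 4 clutches, at 2.36-fold to 3.80-fold, and ptma.L in 1 of 4. At 8 hpf ptma.L, hdgf.L, marcksl1.S and mtss1.1.L had also passed it in all 4 clutches, mtss1.1.L narrowly in its lowest clutch at 2.00-fold. Hmgb2.L had passed it in 2 of 4 clutches at 8 hpf and in all 4 at 9 hpf. Such a fold depends on the bead value at 5 hpf, when beads also held maternal messages. The egg and oocyte markers summed to 24060 to 26518 on beads at 5 hpf, against 30798 to 32397 in total RNA at 5 hpf. Ptmap12.S, the first to pass, had the lowest egg values of the 6, and hmgb2.L, the last, had the highest. The part of the starting level in this order was not tested.

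Flowthrough RNA, the part that the beads did not hold, differed less between 9 and 5 hpf than bead RNA for these messages. The change at 9 hpf against 5 hpf (log2) was 0.45 for ptmap12.S, 0.39 for hmgb2.L, 0.31 for hdgf.L, 0.27 for marcksl1.S and 0.12 for ptma.L. Of the 6, mtss1.1.L alone was lower, in 4 of 4 clutches, with 730, 1007, 1061 and 1130 at 9 hpf, against 1008, 1203, 1656 and 1462 at 5 hpf. Its log2 change was -0.43, beside a median of -0.04 over the 19277 genes in that fit.

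The rule rested on the ratio of bead to flowthrough RNA. At 9 hpf that ratio within a clutch was 15.0 to 86.2 for ptmap12.S, 6.20 to 61.8 for ptma.L, 4.71 to 28.2 for mtss1.1.L, 4.86 to 15.3 for hdgf.L, 2.97 to 4.24 for marcksl1.S and 1.85 to 5.47 for hmgb2.L. At 5 hpf it was 0.814 to 4.19 for ptmap12.S, 1.104 to 6.00 for ptma.L, 0.996 to 6.87 for mtss1.1.L, 0.861 to 3.06 for hdgf.L, 0.856 to 1.37 for marcksl1.S and 0.709 to 1.95 for hmgb2.L. The wide ranges split by experiment. For mtss1.1.L the 5 hpf ratio was 1.14 and 0.996 in the clutches of experiment 1 and 4.43 and 6.87 in those of experiment 2, where fewer genes were above 0 on beads. The part that this difference between experiments has in the levels was not tested. The values also depended on the scaling. Quantile normalization, which forces all libraries to one distribution, moved the median bead minus flowthrough difference of all genes at 9 hpf to -0.28 (log2), against -0.69 as deposited. That difference was then -0.27 for hmgb2.L, against 1.58 as deposited, and 0.59 for marcksl1.S, against 1.83. The bead change, 9 minus 5 hpf, was 0.32 for hmgb2.L after quantile normalization, against 1.81 as deposited, 0.96 for marcksl1.S, against 1.98, and 1.097 for mtss1.1.L, against 1.86.

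**Figure D2:**
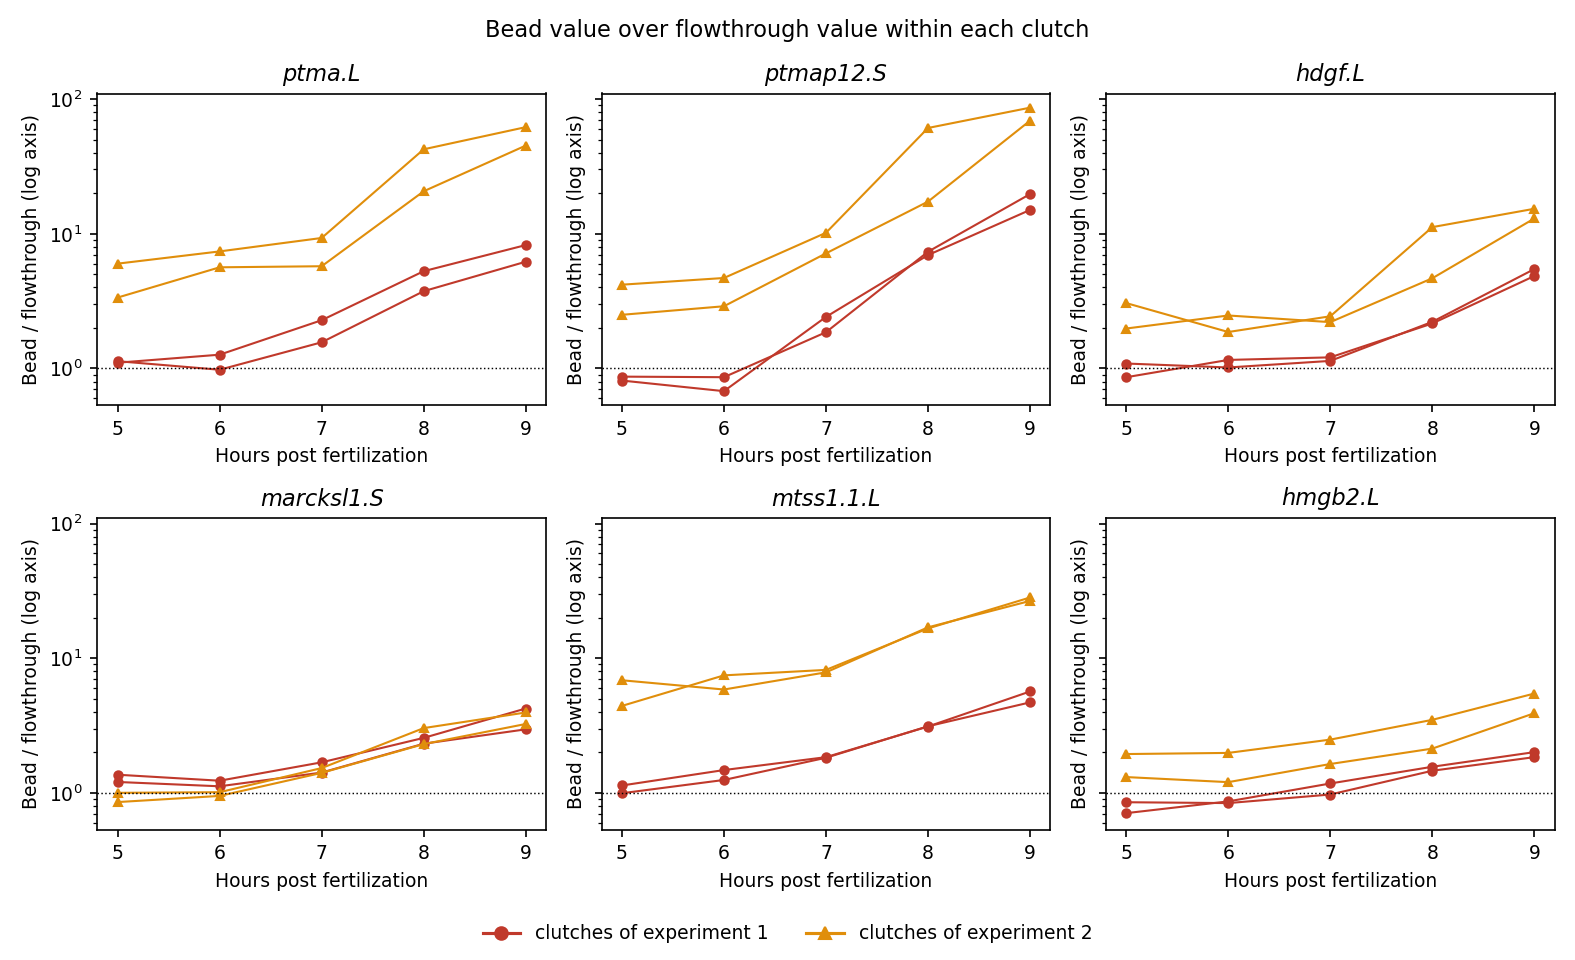
Bead value divided by flowthrough value within each clutch (log axis) against hours post fertilization, one line per clutch, with the dotted line at equal values. The lines are higher at 9 hpf than at 5 hpf, a direction built in because the messages were chosen for a rise of this ratio. The clutches of experiment 2 lie above those of experiment 1 for every message but marcksl1.S.

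Among 7213 genes with at least the mean total value of ptmap12.S at 5 hpf (288), the change of the bead to flowthrough difference, 9 minus 5 hpf, was 4.46 (log2) for ptmap12.S, which ranked 11th. It was 3.12 for ptma.L at rank 34, 2.47 for hdgf.L at rank 65, 2.30 for mtss1.1.L at rank 82, 1.71 for marcksl1.S at rank 140 and 1.42 for hmgb2.L at rank 186. The genes next after hmgb2.L were ddit4.L, pcsk5.L and rbm5.L, each also at 1.42. Of the 7213 genes, 101 (1.40%) were at or above the lowest of the 6 in level, in this change and in the bead to flowthrough difference at 9 hpf, so the 6 are examples of a larger set. For background, 4.6% of all 21544 genes in this fit were called higher in this change.

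Total RNA after 5 hpf was not used to choose the messages, although it came from the same clutches as the bead RNA of experiment 1. Presence at 5 hpf was used, and total RNA at 5 hpf is the baseline of the tests below and of the comparison with eggs, so these tests are not fully independent of the choice. Total RNA asks whether the value of each message rose relative to the rest of its library. It cannot show whether the pool per embryo grew. Summed over all genes, total RNA values of experiment 1 were 7869490 and 8058610 at 5 hpf and 8757424 and 8668361 at 9 hpf. The changes below, as fitted, were not corrected for these sums. Experiment is a term of the fit, and later total RNA is of experiment 1 alone. Each change against 5 hpf therefore comes from the clutches of experiment 1. The 5 hpf libraries of experiment 2 are listed below but enter only the estimate of spread. In limma's moderated test on log2(value + 1), with Benjamini-Hochberg adjustment over 21534 genes, 4 of the 6 messages rose at 9 hpf against 5 hpf, against a background of 7.32% of all genes passing upward. The change was at least 2-fold for mtss1.1.L alone, against 6.25% of all genes. The median change of the 6 was 0.69 (log2), beside 0.04 over all genes. Every one of the 6 was above 0, as was the median over all genes.

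Mtss1.1.L had 6775 and 7590 in total RNA at 9 hpf, against 1292, 1307, 1922 and 2021 at 5 hpf. The groups lay far apart, and the log2 change was 2.46 ± 0.17 (SE; adjusted p = 1.21e-05, limma), that is 5.24-fold and 5.81-fold in the 2 clutches measured at both times. The intermediate times were 1269 and 1346 at 6 hpf, 2177 and 1725 at 7 hpf, and 4127 and 4241 at 8 hpf. Its change at 8 hpf against 5 hpf was 1.69 ± 0.17 (adjusted p = 0.000228, limma), so most of the rise in value on the log scale lay between 7 and 9 hpf.

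The other 3 messages that rose did so by less than 2-fold. Hdgf.L had 2639 and 2583 in total RNA at 9 hpf, against 1571, 1656, 1493 and 1528 at 5 hpf, a log2 change of 0.69 ± 0.08 (adjusted p = 0.000244, limma). Marcksl1.S had 5205 and 5114 at 9 hpf, against 3011, 3377, 3275 and 3310 at 5 hpf, also 0.69 ± 0.08 (adjusted p = 0.000306, limma). Hmgb2.L, the most abundant of the 6, had 18942 and 17532 at 9 hpf, against 12357, 11476, 12337 and 13772 at 5 hpf, a log2 change of 0.61 ± 0.07 (adjusted p = 0.000218, limma). None of these 3 overlapped between the times. The share of all genes without such overlap was not counted, here or for the messages below. After quantile normalization the change of hmgb2.L was 0.06 (adjusted p = 0.762, limma) and no longer passed.

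The 2 prothymosin messages did not pass in that fit. Ptma.L had 1074 and 1219 in total RNA at 9 hpf, against 711, 843, 752 and 884 at 5 hpf. The groups did not overlap, and the log2 change was 0.56 ± 0.19 (adjusted p = 0.0850, limma). Ptmap12.S had 961 and 662 at 9 hpf, against 306, 285, 299 and 261 at 5 hpf, without overlap, and its log2 change of 1.43 ± 0.55 had an adjusted p of 0.148 (limma). The clutch numbers pair the libraries, and with the clutch as a replicate block both passed, ptma.L at an adjusted p of 7.25e-05 and ptmap12.S at 7.54e-08 (limma). In experiment 1 alone ptmap12.S also passed (adjusted p = 0.0126, limma), whereas ptma.L did not (adjusted p = 0.110). That fit gives the same changes and differs in the estimate of spread, so it is not a separate check of their size. With either clutch of experiment 1 left out, 1 library is left at 9 hpf, assumed to vary like the other groups, and 0 of the 6 messages passed.

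At 8 hpf against 5 hpf 3 of the 6 had passed, beside 4.37% of all genes upward. They were mtss1.1.L, marcksl1.S at 0.51 ± 0.08 (adjusted p = 0.00405, limma) and hmgb2.L at 0.39 ± 0.07 (adjusted p = 0.00699). Hdgf.L was at 0.30 ± 0.08 (adjusted p = 0.0600, limma). In the blocked fit all 6 passed at 8 hpf, the weakest being ptma.L (adjusted p = 0.0403, limma). The 4.37% is of the fit without the block, and the share of all genes that rose in the blocked fit is not given. Counts of messages, copies or list genes from the blocked fit, here and below, thus have no background beside them. At 7 hpf 0 of the 6 passed against 5 hpf (limma), beside 1.14% of all genes upward, with 3 at an unadjusted p under 0.05. With the replicate block 2 passed at 7 hpf, mtss1.1.L (adjusted p = 0.00119) and marcksl1.S (adjusted p = 0.0372, limma). At 6 hpf 0 of the 6 passed, beside 0.065% of all genes upward, and 0 had an unadjusted p under 0.05 (limma).

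The earlier step, from the unfertilized egg to 5 hpf, showed no change that passed for any of the 6 (0 of 6, beside 0.339% of all genes upward and 0.409% downward, limma). The log2 difference of 5 hpf embryos minus eggs was between -0.05 and 0.31 for ptma.L, hdgf.L, marcksl1.S, mtss1.1.L and hmgb2.L, and hdgf.L had an unadjusted p of 0.0120 that did not survive adjustment (0.220). Ptmap12.S had 306, 285, 299 and 261 in embryos at 5 hpf, against 66 and 291 in eggs. Its log2 difference of 1.00 ± 0.55 (adjusted p = 0.495, limma) rests on the egg library at 66. Without the other egg library the difference was 2.07 (adjusted p = 0.0216, limma), but this leaves 1 egg library, assumed to vary like the other groups. With experiment as a term, the differences from eggs come from the 5 hpf libraries of experiment 2, the experiment of the eggs. Eggs and embryos also differ in the EU injection, which cannot be told apart from the stage.

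**Figure D3:**
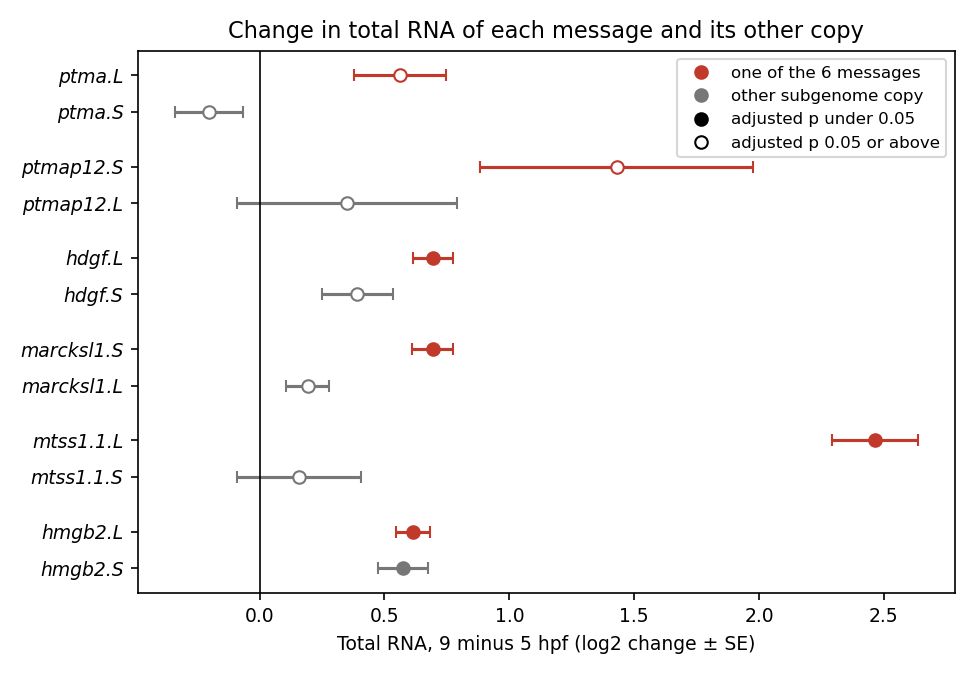
Log2 change of total RNA, 9 minus 5 hpf, for each of the 6 messages (red) and its other subgenome copy (grey), with standard errors from limma. Filled points passed an adjusted p of 0.05. The change of mtss1.1.L, at 2.46, is the largest, and among the other copies only hmgb2.S passed.

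Within experiment 1 the 3 fractions of a clutch can be set side by side at 9 hpf. Bead over total RNA was 4.68 and 4.35 for ptma.L, 4.13 and 4.73 for ptmap12.S, 3.40 and 3.69 for hdgf.L, 2.56 and 2.04 for marcksl1.S and 1.15 and 1.203 for hmgb2.L. Mtss1.1.L was the only one of the 6 below 1, at 0.611 and 0.624. Its total RNA was 9.28 and 7.54 times its flowthrough value at 9 hpf, against 1.28 and 1.09 times in the same clutches at 5 hpf. For the other 5 messages total over flowthrough RNA at 9 hpf lay between 1.42 and 4.16. Values are relative within a library, so these ratios are relative to the other messages of a library.

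The other subgenome copies were not used to choose the 6 and could be tested in every fraction. Being outside the 6 does not mean that a copy lacks their trait. Ptmap12.L averaged 1028 in total RNA at 5 hpf, above ptmap12.S at 288. Its bead to flowthrough ratio within a clutch was 3.70 to 26.4 at 9 hpf, against 0.943 to 5.51 at 5 hpf. For mtss1.1.S, by contrast, that ratio was 0.756 to 1.11 at 9 hpf, against 0.937 to 1.29 at 5 hpf. On beads 5 of the 6 other copies rose at 9 hpf against 5 hpf, beside 6.51% of all 20703 genes (limma), 4 of them at least 2-fold, beside 5.83%. The median change of the 6 copies was 1.52 (log2), beside -0.33 over all genes. Salmon assigns reads to near-identical L and S copies, and to ptma and ptmap12, in part by estimate, so the values of a pair are not fully separate.

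Ptmap12.L, the other copy of ptmap12, had 4001, 2786, 21043 and 16788 on beads at 9 hpf, against 709, 526, 2333 and 2711 at 5 hpf, a log2 change of 2.68 ± 0.20 (adjusted p = 6.92e-09, limma). Every clutch was higher at 9 hpf, by 5.30-fold to 9.02-fold. Hmgb2.S had 11067, 11213, 13882 and 22198 at 9 hpf, against 2775, 2617, 3391 and 3385 at 5 hpf, a change of 2.21 ± 0.24 (adjusted p = 1.58e-06, limma). Hdgf.S rose by 1.43 ± 0.23 (adjusted p = 0.000126, limma), with 1 clutch of experiment 2 at 6.06-fold and the other 3 clutches at 1.96-fold to 2.24-fold. Marcksl1.L rose by 1.00 ± 0.14 (adjusted p = 3.63e-05, limma), just under the 2-fold threshold.

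Ptma.S had 1662, 1945, 17706 and 34227 on beads at 9 hpf, against 828, 937, 3786 and 7768 at 5 hpf, a log2 change of 1.61 ± 0.42 (adjusted p = 0.0210, limma). All 4 clutches were higher, by 2.01-fold to 4.68-fold. The change no longer passed in experiment 2 alone (adjusted p = 0.261), without the experiment term (0.645), or with clutch 1 or clutch 2 left out (0.133 and 0.142, limma). Mtss1.1.S was the copy that did not pass. It had 768, 646, 666 and 594 on beads at 9 hpf, against 830, 635, 840 and 592 at 5 hpf, a change of -0.10 ± 0.39 (adjusted p = 0.909, limma). At 9 hpf 5 of the 6 other copies were also higher on beads than in flowthrough, beside 12.1% of all genes, the exception again being mtss1.1.S at -0.07 ± 0.30 (adjusted p = 0.867, limma). The change of the copies on beads did not differ between the experiments for any of the 6 (adjusted p 0.452 for hdgf.S to 0.975 for mtss1.1.S, limma), and such a p does not show that they were alike.

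**Figure D4:**
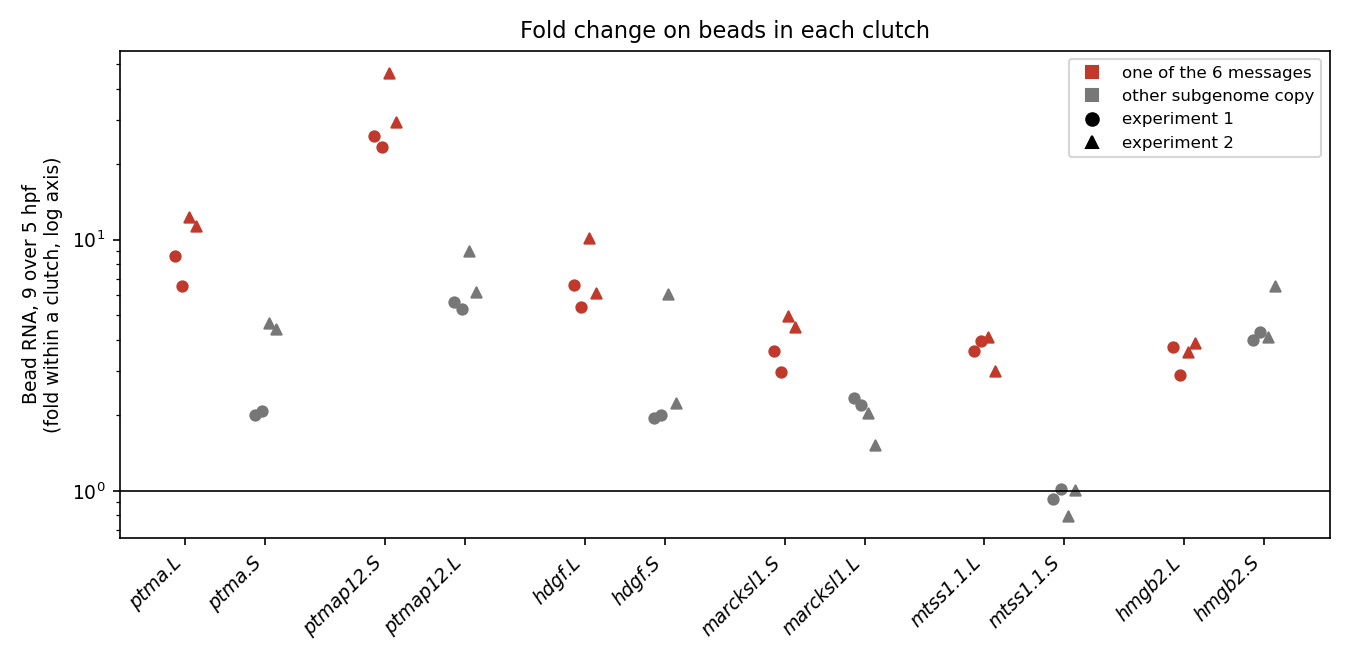
Fold of bead RNA at 9 hpf over 5 hpf within each clutch (log axis) for the 6 messages (red) and their other copies (grey), with circles for experiment 1 and triangles for experiment 2. Ptmap12.S lies at 23.4-fold to 46.2-fold and ptmap12.L at 5.30-fold to 9.02-fold, while mtss1.1.S lies at 0.793-fold to 1.02-fold.

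In total RNA 1 of the 6 other copies rose at 9 hpf against 5 hpf, beside 7.32% of all 21534 genes (limma). Hmgb2.S had 6931 and 6013 at 9 hpf, against 4663, 4033, 4028 and 4253 at 5 hpf, a log2 change of 0.57 ± 0.10 (adjusted p = 0.00375, limma). The others were at 0.39 ± 0.14 for hdgf.S, 0.35 ± 0.44 for ptmap12.L, 0.19 ± 0.09 for marcksl1.L, 0.16 ± 0.25 for mtss1.1.S and -0.20 ± 0.14 for ptma.S. With the replicate block hdgf.S (adjusted p = 0.00108), ptmap12.L (0.00258) and marcksl1.L (0.0194, limma) also passed, and mtss1.1.S and ptma.S did not. After quantile normalization hmgb2.S did not pass (adjusted p = 0.0627, limma), and marcksl1.L was at -0.09, the other sign, also without passing.

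Because both copies of a pair are read in the same library, the L minus S difference in the total RNA change was also fitted over 5174 gene pairs. This comparison was chosen after the data had been seen, and the copy counted among the 6 had been picked for its bead change. For mtss1.1 the L copy gained 2.31 ± 0.32 (log2) more than the S copy (adjusted p = 0.0107, limma), and 84 of the 5174 pairs passed. For ptma the difference was 0.76 ± 0.16 (adjusted p = 0.0608), for ptmap12 -1.08 ± 0.46 (0.405), for marcksl1 -0.50 ± 0.17 (0.255), for hdgf 0.30 ± 0.19 (0.676) and for hmgb2 0.04 (0.999, limma). With the replicate block ptma (adjusted p = 0.0457) and ptmap12 (0.0169, limma) also passed, of 211 pairs among 5114. Without replicate 1 or replicate 2, which leaves 1 library at 9 hpf, 0 pairs passed, and mtss1.1 was at 2.29 (adjusted p = 0.788) and 2.33 (adjusted p = 0.725, limma). After quantile normalization the hmgb2 difference was -0.17, the other sign.

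The share of the L copy in the sum of the pair is given by library, as a description. The fit above was of total RNA, so the bead shares are not a repeat of it. On beads the L share of ptmap12 was 50.3% ± 3.00 at 9 hpf, against 82.6% ± 2.55 at 5 hpf (SD, n = 4 each), and in total RNA it was 62.2% and 67.0% in the libraries of 9 hpf, against 72.1% to 82.5% in those of 5 hpf. The S copy was thus close to equal with the L copy in value on beads at 9 hpf. For ptma the L share on beads was 66.6% ± 8.88 at 9 hpf and 39.7% ± 5.26 at 5 hpf, and for hdgf it was 75.7% ± 3.03 at 9 hpf and 55.1% ± 6.77 at 5 hpf. For marcksl1 it was 28.3% ± 5.94 at 9 hpf and 43.4% ± 3.97 at 5 hpf, the S copy being the one of the 6. None of these 4 pairs overlapped between the times on beads, and the share of all pairs without overlap was not counted. In each of the 4 the shift was toward the copy among the 6. That copy had been picked for its bead rise, so the shift is in part built in.

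The mtss1.1 pair had an L share on beads of 92.1% ± 6.96 at 9 hpf and 76.9% ± 17.9 at 5 hpf, with overlap between the times, because the clutches of experiment 2 were already at 89.7% and 94.4% at 5 hpf. In total RNA it was 91.4% and 92.5% at 9 hpf, against 67.9% to 80.2% at 5 hpf. In flowthrough it was 51.2% to 63.5% at 9 hpf and 61.1% to 69.8% at 5 hpf. The hmgb2 pair moved least, with 69.7% ± 4.68 on beads at 9 hpf and 75.1% ± 5.91 at 5 hpf, and 73.8% ± 0.884 (n = 2) in total RNA at 9 hpf, against 74.6% ± 1.66 (n = 4) at 5 hpf. On beads its L share was lower at 9 hpf in every clutch, a shift away from hmgb2.L, the copy among the 6. Within a clutch hmgb2.S rose 3.99-fold to 6.56-fold on beads, against 2.90-fold to 3.87-fold for hmgb2.L. In flowthrough the pairs of ptmap12 and hmgb2 stayed within 72.1% and 81.3% at all 5 times.

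**Figure D5:**
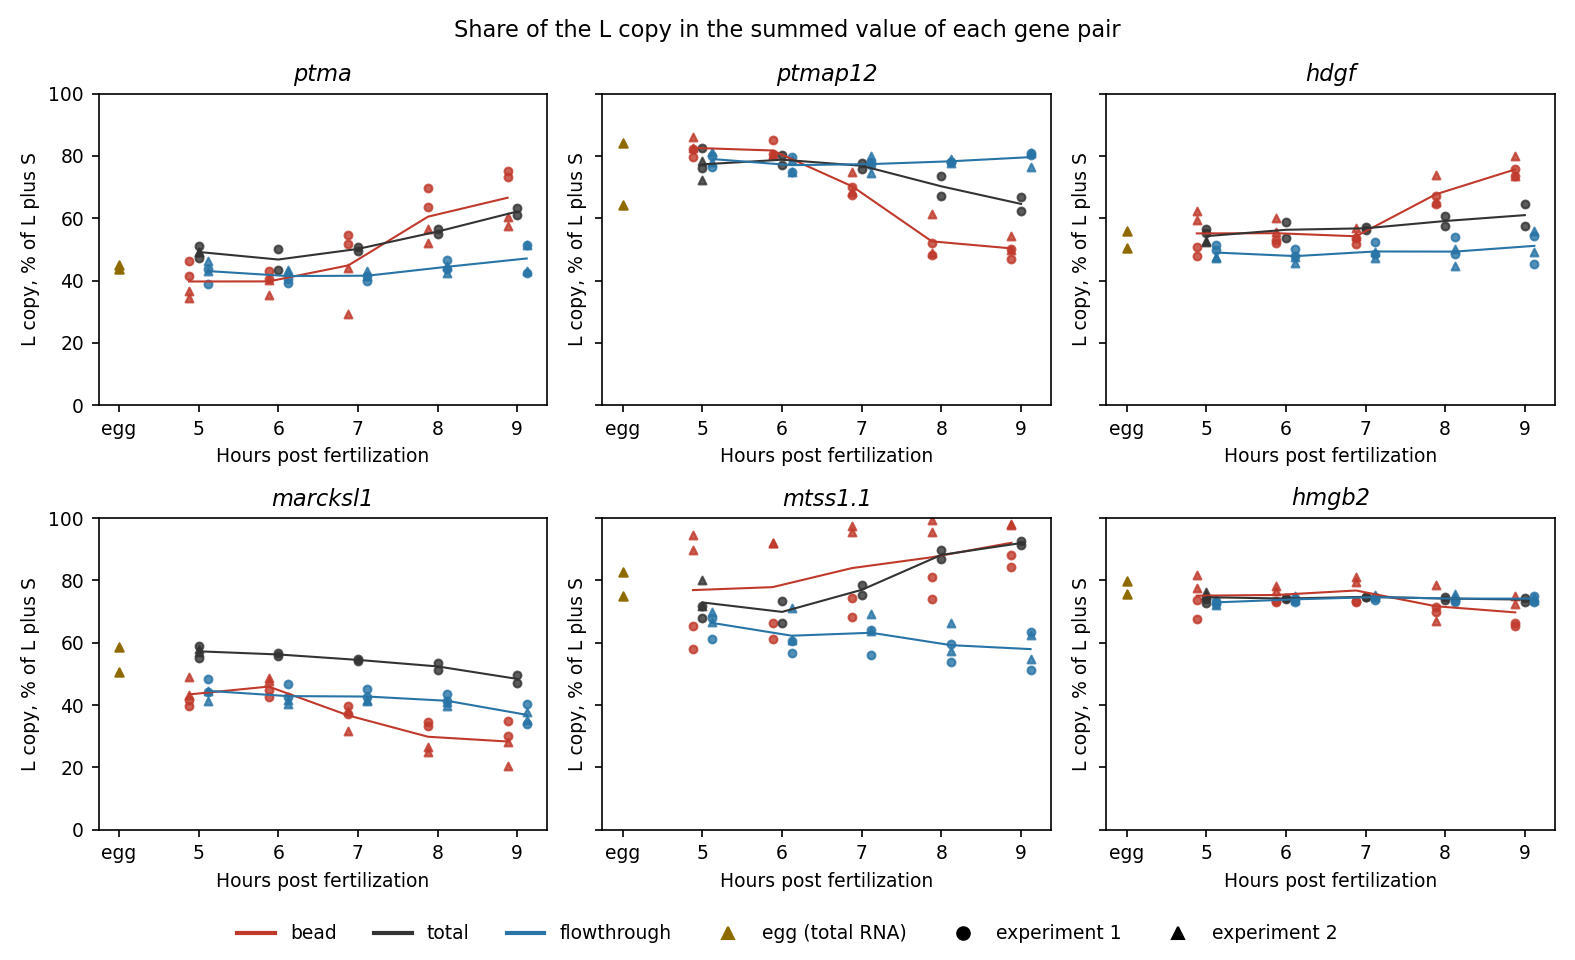
L copy as a percent of the L plus S value in every library against hours post fertilization, with eggs at the left, circles for experiment 1 and triangles for experiment 2, and lines through the means. The bead lines of ptma and hdgf climb to 66.6% and 75.7% at 9 hpf, those of ptmap12 and marcksl1 drop to 50.3% and 28.3%, and the lines of hmgb2 stay together.

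The families to which these proteins belong were read from lists, leaving out the 6 messages. In total RNA 7 of 18 high mobility group genes tested rose at 9 hpf against 5 hpf, beside 7.32% of all genes, 0 fell and 0 reached 2-fold (limma; median change 0.30 log2, beside 0.04 over all genes). Of the 18, 10 rose and 1 fell with the replicate block, 5 rose after quantile normalization, and 0 passed without replicate 1 or replicate 2. Besides hmgb2.S, the 7 that rose as fitted included hmgb3.L at 0.73 ± 0.08 (adjusted p = 0.000165) and hmgn1.S at 0.81 ± 0.12 (adjusted p = 0.00115, limma). On beads 6 of the 18 rose at least 2-fold, beside 5.83% of all genes, with a list median of 0.72 beside -0.33 over all genes. In experiment 2 alone 4 of the 18 passed. The 6 that rose in the fit of both experiments included hmgn1.S at 3.31 ± 0.27 (adjusted p = 2.35e-08), hmgn1.L at 2.59 ± 0.25, hmgb3.L at 1.80 ± 0.19 and hmgb2.S (limma). Hmgn proteins bind nucleosomes.

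Of 32 genes for acidic histone chaperones, which hold histones before they are laid on DNA, 7 rose on beads and 0 fell, beside 6.51% of all genes upward and 1.67% downward, among them anp32c.S at 2.06 ± 0.29 (adjusted p = 8.71e-05), anp32e.L at 1.31 ± 0.24 and ncl.S, nucleolin, at 0.95 ± 0.10 (limma). After quantile normalization ncl.S was at -0.18 on beads, the other sign, and 4 of the 32 rose and 2 fell. The blocked fit had 14 rising and 0 falling on beads, whereas 3 rose in experiment 2 alone and 1 with no experiment term. In total RNA 2 of the 32 rose and 2 fell, namely anp32c.S at 0.48 ± 0.07 and set.S at 0.54 ± 0.09 upward, and nasp.L at -0.70 ± 0.10 and nasp.S at -0.61 ± 0.13 downward (adjusted p 0.00110 to 0.0133, limma). These counts stand beside 7.32% of all genes upward and 4.73% downward, so the share that rose was no higher than among all genes. The blocked fit had 7 rising and 8 falling in total RNA, and 0 passed without replicate 1 or replicate 2. Of 3 MARCKS family genes, marcksl1.L and marcks.L rose on beads, beside 6.51% of all genes, the second by 1.12 ± 0.22 (adjusted p = 0.00148), and marcks.S was at 0.68 ± 0.38 (adjusted p = 0.311, limma). In experiment 2 alone 0 of the 3 passed on beads. In total RNA 0 of the 3 passed (limma), with 2 at an unadjusted p under 0.05, and all 3 rose with the replicate block.

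Of 5 genes of the HDGF family, only hdgf.S rose on beads, beside 6.51% of all genes, and 0 passed in total RNA (limma), with 1 at an unadjusted p under 0.05. Hdgf.S rose in total RNA in the blocked fit. Hdgfl2.S was at 0.44 ± 0.28 on beads (adjusted p = 0.385). Of 10 genes for I-BAR domain proteins, 0 passed on beads or in total RNA, with a median change on beads of -0.73. At an unadjusted p under 0.05, 2 of the 10 were lower on beads and 1 in total RNA (limma), and 1 fell in total RNA with the replicate block. Mtss1.2.L, by its symbol the nearest relative of mtss1.1.L, was at 0.22 ± 0.21 on beads (adjusted p = 0.582; -0.09 after quantile normalization) and 0.13 ± 0.08 in total RNA (adjusted p = 0.384, limma).

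Across the 16 group means the 6 messages followed each other with Pearson correlations of 0.787, between ptma.L and hmgb2.L, to 0.967, between marcksl1.S and hmgb2.L. These are descriptions, because the groups share clutches and scaling. The 6 had also all been chosen for a rise of bead over flowthrough RNA, so high correlations among them are in part built in. Likeness to the mean of the 6 was computed for 12497 genes with a mean of at least 100 in eggs. Loci without a proper gene symbol ending in .L or .S were then passed over, so genes more alike may be among those. The 6 other genes with such a symbol that were most alike were hnrnpdl.L and hnrnpu.S (both 0.988), myef2.S (0.984), smarcc1.L and krcc1.S (both 0.972) and iqgap2.L (0.969). Hnrnpdl and hnrnpu encode heterogeneous nuclear ribonucleoproteins, which bind RNA in the nucleus, and smarcc1 encodes a subunit of the SWI/SNF chromatin remodeler. Hnrnpdl.L, for example, averaged 21644 on beads at 9 hpf against 2745 at 5 hpf, and 4559 in total RNA at 9 hpf against 2822 at 5 hpf. Iqgap2.L, a scaffold protein gene, averaged 21368 on beads at 9 hpf against 2570 at 5 hpf, and 5328 in total RNA at 9 hpf against 1786 at 5 hpf. When experiment 1 alone gave the bead and flowthrough means, the correlation of the 6 genes was 0.908 to 0.965.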

How the data were processed

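The authors deposited 1 table of 50489 genes by 54 libraries. Each value is treated as a score, a rounded whole number on the authors' normalized scale, and the submitters' processing notes name Salmon 0.12.0 and DESeq2. The build of the genome is not given in the sources used here. Such values carry no counting interval and are not raw reads, so the count test that had been planned was replaced by limma-trend with robust empirical Bayes (limma 3.58.1, statmod 1.5.0, R 4.3.3) on log2(value + 1). On this scale the fold of a low gene comes out too small. Tested genes reached 10 in as many libraries as the smallest group, and all 6 messages and their 6 other copies passed this filter. Experiment was a term in every fit, and experiment by fraction in the bead and flowthrough fit. P-values were adjusted by Benjamini and Hochberg's method across all genes of a fit. A gene passed under 0.05 and was called when it also changed at least 2-fold. The bead and flowthrough contrasts had served to choose the 6 messages, so the messages have no test there. The fit was checked on simulated data that held no difference between experiments or clutches, so the check does not cover those differences. All 12 symbols were matched to the RefSeq table of assembly Xenopus_laevis_v10.1, whose coordinates were not used.

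Per the series design, 2 clutches per experiment served as biological replicates for all fractions, so that replicate numbers pair libraries. Deviations of same-numbered libraries from their group means at 2 times correlated at 0.749 to 0.850 in total, 0.636 to 0.774 in bead and 0.768 to 0.860 in flowthrough RNA of experiment 1, and at 0.0950 to 0.222 in bead and 0.777 to 0.875 in flowthrough RNA of experiment 2. The 6 messages and all lists were chosen with earlier results of these data known. Named genes were the 6 messages, their copies, up to 4 called and 2 other genes of a list, by smallest adjusted p, and the 6 genes of most like pattern among those with a proper symbol. List genes that passed without being called, and the genes next to the rule's limit, are named beyond this rule.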

Additional observations from a re-analysis of the deposited data

Results flagged for a closer look

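Of 132 groups of 4 libraries of the 6 messages and their other copies, 5 held a library farther from the rest than Dixon's critical value of 0.829 allows, and chance flags about 1 in 20 groups. Hdgf.L had 1596 in flowthrough at 6 hpf in clutch 2, the highest of 4, with the others at 1451 to 1461. Hdgf.S had 3206 on beads at 5 hpf in clutch 4, the highest. Hmgb2.S had 5264 on beads at 6 hpf and 17365 on beads at 8 hpf, both the highest and both in clutch 4, and 2909 in flowthrough at 6 hpf in clutch 4, the lowest.

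In 3 cases the clutches of one fraction all moved one way between 5 and 9 hpf and those of another fraction all the other way, a difference that was not tested. Mtss1.1.L averaged 3.66-fold on beads (n = 4) and 5.53-fold in total RNA (n = 2), against 0.744-fold in flowthrough (n = 4), 9 over 5 hpf. Ptma.S averaged 3.29-fold on beads (n = 4), against 0.870-fold in total RNA (n = 2).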

How the results depend on the processing

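Total RNA after 5 hpf has 2 libraries a time, both of experiment 1, and leaving out either leaves 1. The number of the 6 messages that rose at 9 hpf against 5 hpf was 4 as fitted, 3 after quantile normalization, 6 with the replicate block and 0 without replicate 1 or replicate 2. At 8 hpf it was 3 as fitted, 2 after quantile normalization, 6 with the block and 0 without either. Other copies that rose in total RNA at 9 hpf numbered 1 as fitted, 0 after quantile normalization, 4 with the block and 0 without either. On beads, other copies that rose numbered 5 as fitted, 5 with the block and 3 both in experiment 2 alone and with no experiment term. For settings other than as fitted, the share of all genes that passed is not given beside these counts. Against eggs 1 message passed without egg replicate 2 and 0 in the other settings run. No paired analysis was possible because egg libraries are numbered on their own clutches.

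Counts of all genes called moved more. In total RNA at 9 against 5 hpf, 1346 genes were called higher and 431 lower, 2098 higher without a filter, 641 higher with the filter at 50, 1092 higher and 690 lower after quantile normalization, 734 lower with the block, and 0 to 1318 higher and 0 to 402 lower with 1 replicate left out. At 5 hpf against eggs, 51 were higher and 61 lower, 99 and 143 with no experiment term, 6 and 0 in experiment 2 alone, and 1 to 140 and 0 to 69 with 1 replicate left out. On beads, 1208 were higher and 296 lower, 191 lower without a filter, 1277 higher and 562 lower after quantile normalization, 745 and 63 with no experiment term, 245 and 67 in experiment 2 alone, and 760 to 1285 and 85 to 249 with 1 replicate left out. In flowthrough, 39 were higher and 759 lower, 127 higher without a filter, 5 higher with the filter at 50, 61 and 476 after quantile normalization, 63 higher with the block, 12 and 265 in experiment 1 alone, 23 and 332 in experiment 2 alone, and 37 to 45 and 626 to 725 with 1 replicate left out. For bead minus flowthrough RNA at 9 hpf, 2014 were higher and 4075 lower, 2296 and 2204 after quantile normalization, 967 lower with no experiment term, 81 lower in experiment 1 alone, and 1574 to 2108 and 1869 to 5029 with 1 replicate left out. The count of genes lower on beads than in flowthrough thus rests largely on experiment 2, which alone gave 4076. For the change of that difference, 992 were higher and 35 lower, 14 lower without a filter, 108 lower after quantile normalization, 1 lower with no experiment term, 7 lower in experiment 1 alone, 335 and 264 in experiment 2 alone, and 630 to 1055 and 0 to 30 with 1 replicate left out.

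Quantile normalization gave 17 single values the other sign. Of those that had passed as fitted, that passed after it, or that served to choose the messages, ncl.S was at -0.28 in total RNA and -0.18 on beads, 9 minus 5 hpf, and hmgb2.L at -0.27 in bead minus flowthrough RNA at 9 hpf. The others, marcksl1.L at -0.09 in total RNA among them, passed neither way. For all of these shifts the cause was not tested.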
